A study of Mus musculus with 6 samples.

Results

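Cyclic AMP (cAMP) is the second messenger through which adenosine and prostaglandin E2 restrain T cells. Gs-coupled receptors switch on adenylyl cyclases, Gi proteins hold them back, and phosphodiesterases destroy the cAMP that is made. cAMP frees the catalytic subunits of protein kinase A (PKA) from their regulatory subunits, and the kinase then phosphorylates targets near the membrane and, in the nucleus, CREB-family transcription factors. Described here are 34 genes of this route, matched by symbol among the 49671 genes of the table: 2 prostaglandin receptors, 3 G protein subunits, 3 RGS proteins, 4 cyclases, 7 phosphodiesterases, 6 PKA subunits, 3 anchoring proteins, 3 transcription factors and 3 coactivators.

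The data are 6 RNA libraries from CD8 T cells of OT-I mice, which carry a transgenic receptor for the ovalbumin peptide SIINFEKL. In 3 libraries the genotype is CD73 KO and in 3 it is WT. CD73, the product of Nt5e, is the surface enzyme that makes adenosine from AMP, so the comparison asks whether cells without it differ in the pathway that adenosine feeds. All 6 libraries came from spleen cells kept for 5 days with IL-7 and IL-15 at 5 ng/mL each and peptide at 10 ng/mL every day, washed and replated after 48 hours, a treatment the labels call exhaustion, and live cells were sorted. No unstimulated cells and no cells given adenosine are among them. The sources used here do not give age, sex, the knockout allele or whether libraries of 1 genotype are separate animals or cultures. P-values therefore measure the spread among these libraries, part of which may be technical. In RNA from a mix of cells, fewer cells that express a gene and less RNA per cell cannot be told apart.

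Totals ran from 6934150 to 19382950 counts per library. The 34 genes took 0.485% to 0.526% of them. The unit CPM stands for counts scaled to a common total with TMM factors. All 7 CD8 T cell markers were detected in every library, and their sum was 3816 to 4134 CPM in CD73 KO and 3461 to 3632 CPM in WT, without overlap. The part of that difference in the results below was not tested. Markers of other cells were low: the 6 myeloid markers summed to 0.426 CPM or less, with Lyz2, Csf1r, Spi1 and C1qa at 0 counts, and the 4 B cell markers to 2.45 CPM or less, with Ms4a1 at 0. The 2 NK cell markers were the highest of the other types, at 1.54 to 3.72 CPM in CD73 KO and 1.14 to 4.69 CPM in WT, nearly all of it Klrb1c, and their part in the results was not tested. The targeted gene did not separate the labels fully. Nt5e stood at 3.67, 8.45 and 8.47 CPM in CD73 KO and at 22.6, 5.22 and 37.4 CPM in the libraries labelled WT, so the library labelled WT replicate 2 lay within the CD73 KO range (log2 fold change -1.67 ± 0.72, SE; edgeR adjusted p = 0.534). Values without that library are given for some of the results below, and others, such as the share of type II subunits, are given with all libraries only.

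Most of the pathway was present and the same genes led each family in every library. Of the 34 genes, 31 passed the filter on low counts. The other 3 had few counts: Adcy9, a widely expressed cyclase, had 0 to 7 counts per library, Prkar1b, a regulatory subunit best known from the nervous system, 0 to 2, and Pde2a, a phosphodiesterase stimulated by cGMP, 0 in 5 libraries and 1 in CD73 KO replicate 1. Of the 6149 exon bases of Pde2a, 3955 overlap Gm45837 on the same strand, where reads may go uncounted, so its low count is uncertain. Gm45837 itself had 0 or 1 counts. Of the 3810 exon bases of Prkar1b, 341 overlap Gm15672 on the same strand, which had 0 to 9 counts, so reads of that part may also go uncounted. For a count of 0, the limit of 3 counts equals 0.160 to 0.427 CPM, which covers counting error only. Levels of different genes are compared below as CPM per kb of annotated exon, since longer transcripts give more reads. The length used is the union of all annotated exons of a gene. It can exceed that of the transcripts present, so an order of genes on this scale depends on it.

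**Figure D1:**
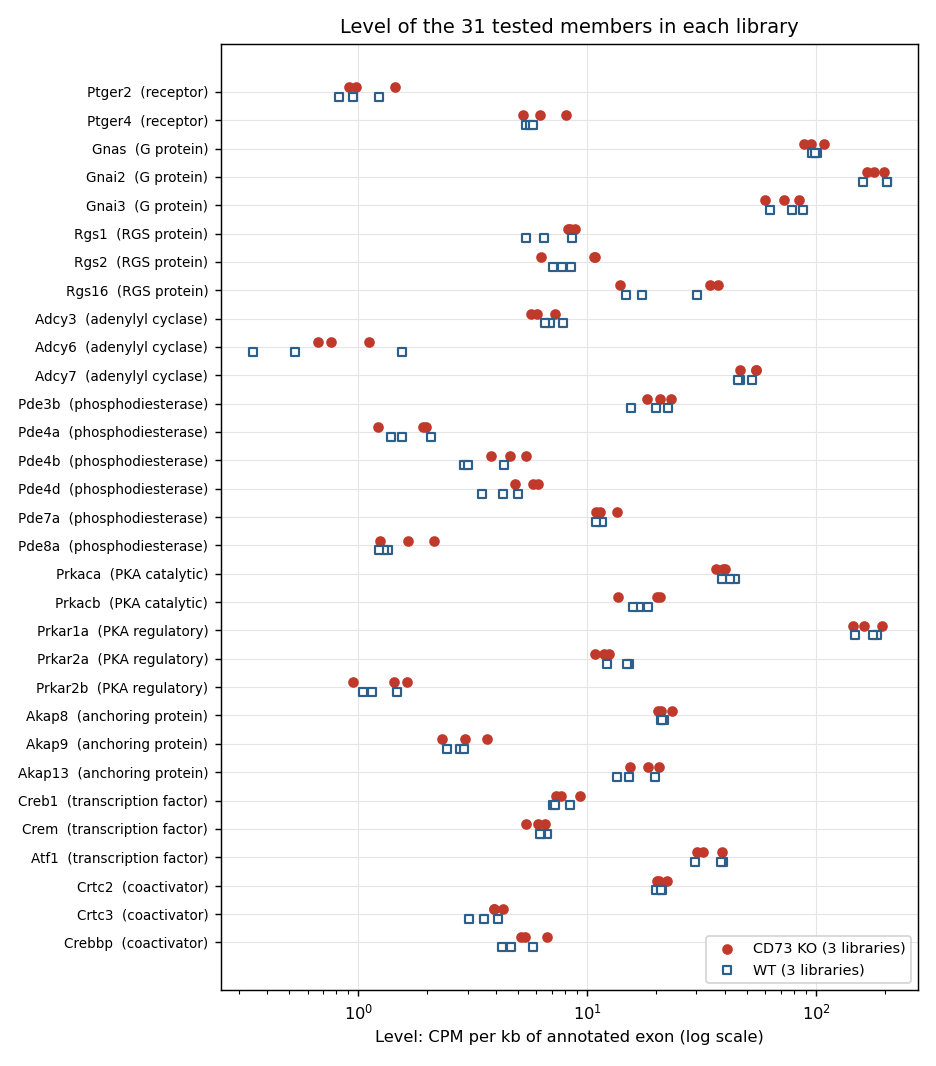
Level of each of the 31 tested genes in CPM per kb of exon (log scale), with 1 point per library, filled circles for CD73 KO and open squares for WT. Gnai2 and Prkar1a lie at the top of the range and Adcy6 and Ptger2 at the bottom, and the circles and squares of every gene overlap.

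Within each step 1 gene or a few carried most of the transcript. Among the regulatory and catalytic PKA subunits, Prkar1a, the type I regulatory subunit, took 68.5% to 73.3% of the counts per kb in a library. Prkaca, the alpha catalytic subunit, took 13.8% to 19.0% and Prkacb, the beta catalytic subunit, 6.48% to 8.55%. Their order rests on the exon length, 2488 bases for Prkaca and 8772 for Prkacb. In CPM, not divided by length, Prkacb was above Prkaca in every library. Adcy7 held 84.8% to 89.0% of the cyclase transcript, ahead of Adcy3 at 9.19% to 14.2%. Among phosphodiesterases Pde3b, the form inhibited by cGMP, led with 40.5% to 51.8%, followed by the cAMP-specific Pde7a with 24.0% to 28.5%. Of the PDE4 family, the target of rolipram, Pde4d, Pde4b and Pde4a each had a smaller share than Pde7a on this scale. The shares were 8.02% to 14.4% for Pde4d, 6.93% to 11.3% for Pde4b and 2.56% to 4.96% for Pde4a. Pde4d and Pde4b overlapped in these shares and are not ordered. Each PDE4 gene was also below Pde7a in every library in CPM, not divided by length. Their sum is not ordered against Pde7a. In CD73 KO replicate 3, Pde4d, Pde4b and Pde4a had 14.4%, 8.94% and 4.52%, against 25.6% for Pde7a.

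**Figure D2:**
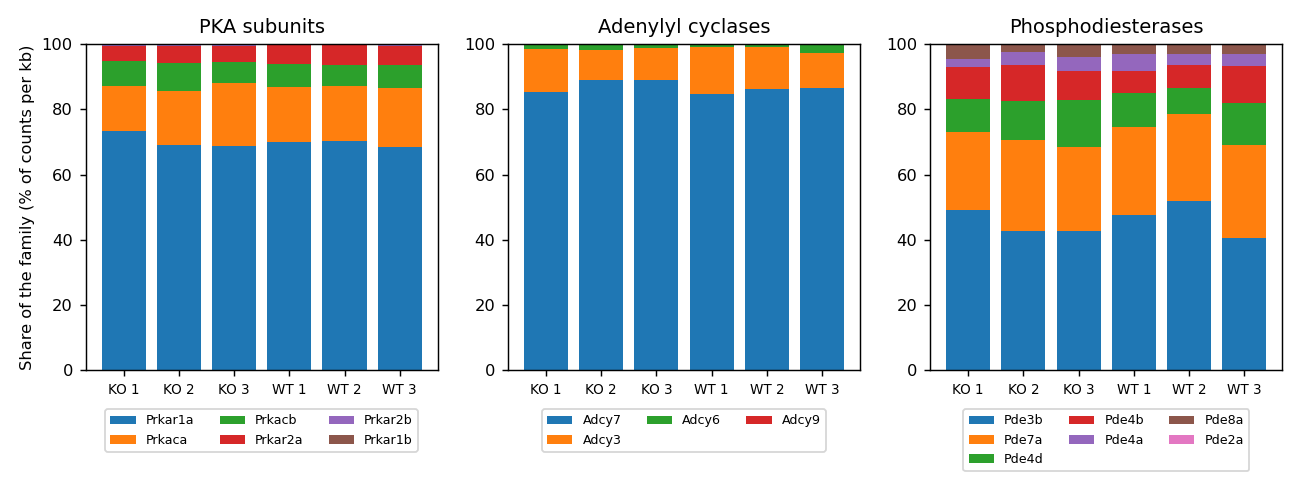
Share of each gene in its family, in percent of the family's counts per kb, with 1 bar per library (KO 1 to 3 are CD73 KO, WT 1 to 3 are WT). Prkar1a, Adcy7 and Pde3b are the largest segment of their family in all 6 bars.

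CREB acts through the cAMP response element, TGACGTCA, so promoters were searched for these letters in RefSeq windows on GRCm38.p6 from 250 bases before to 50 bases after each annotated start. The element is its own reverse complement, so a single search covers both strands. It was in 2.03% of the 27025 genes that have a window. A window was found for 27 of the 34 genes (none for Adcy6, Gnai2, Crtc2, Pde3b, Rgs1, Pde7a and Crem), and 1 of them, Prkar1a, held the element. In a list of 32 CREB target genes, 24 had a window and 4 held it (16.7%), and in a list of 78 further pathway genes 1 of 59 did (1.69%). Shown are those whose expression is described below, with the element in capitals, 5′ to 3′ on the strand of the gene.
Prkar1a: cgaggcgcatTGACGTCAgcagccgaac
Btg2: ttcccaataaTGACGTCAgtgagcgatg
Dusp1: gtagggcgggTGACGTCAccgcccggtc
Ppp1r15a: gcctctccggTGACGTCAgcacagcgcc
Rap1b: gctgaacgccTGACGTCAaggcgacacc
The Prkar1a stretch lies at chr11:109650890-109650917 (plus strand), inside an intron of the annotated gene, and its element begins 49 bases before one of the alternative starts of that gene. Those of Btg2 (chr1:134079304-134079331) and Dusp1 (chr17:26508598-26508625) begin 166 and 143 bases before the start, the first outside the annotated gene and the second within an intron of the annotated gene. Those of Ppp1r15a (chr7:45526263-45526290) and Rap1b (chr10:117845999-117846026) begin 12 and 42 bases before the start and lie partly or wholly in annotated exon. These 4 genes are on the minus strand. The shorter element TGACG, on either strand and counted also where it is part of the full one, was in 15 of the 27 genes, against 23.0% of all genes. Several of the 27 have many windows (55 in all), which raises that count. A match of letters is no evidence of binding.

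Between genotypes, the pathway showed no gene past the threshold. By edgeR's quasi-likelihood test with Benjamini-Hochberg adjustment over 12242 genes, 0 of the 31 tested genes had an adjusted p under 0.05, as did 0.0572% of all tested genes. DESeq2 and limma-voom also called 0. At an unadjusted p under 0.05 there were 3, Pde4b and Pde4d higher in CD73 KO and Prkar2a lower, a share of 9.68% against 9.64% of all tested genes. CD73 KO and WT libraries overlapped for all 31, whereas 15.2% of all tested genes had groups that did not overlap. The fitted log2 fold change of CD73 KO against WT was above 0 for 22 of 31 (52.3% of all tested genes), with a median of 0.10 against 0.01 over all tested genes, and it ran from -0.27 to 0.46.

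The intervals of the differences, taken 1 gene at a time and not adjusted for their number, show how large a difference these libraries leave possible. The 95% interval lay within 2-fold in either direction for 29 of 31 genes (82.7% of all tested genes) and within 1.5-fold for 22 of 31 (57.6%). The 2 exceptions at 2-fold were Rgs16 and Adcy6, the 2 members that varied most within a genotype. The members were more abundant than most genes, with a median of 71.9 CPM against 30.3 CPM, and their median standard error was 0.15 against 0.16 on the log2 scale.

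**Figure D3:**
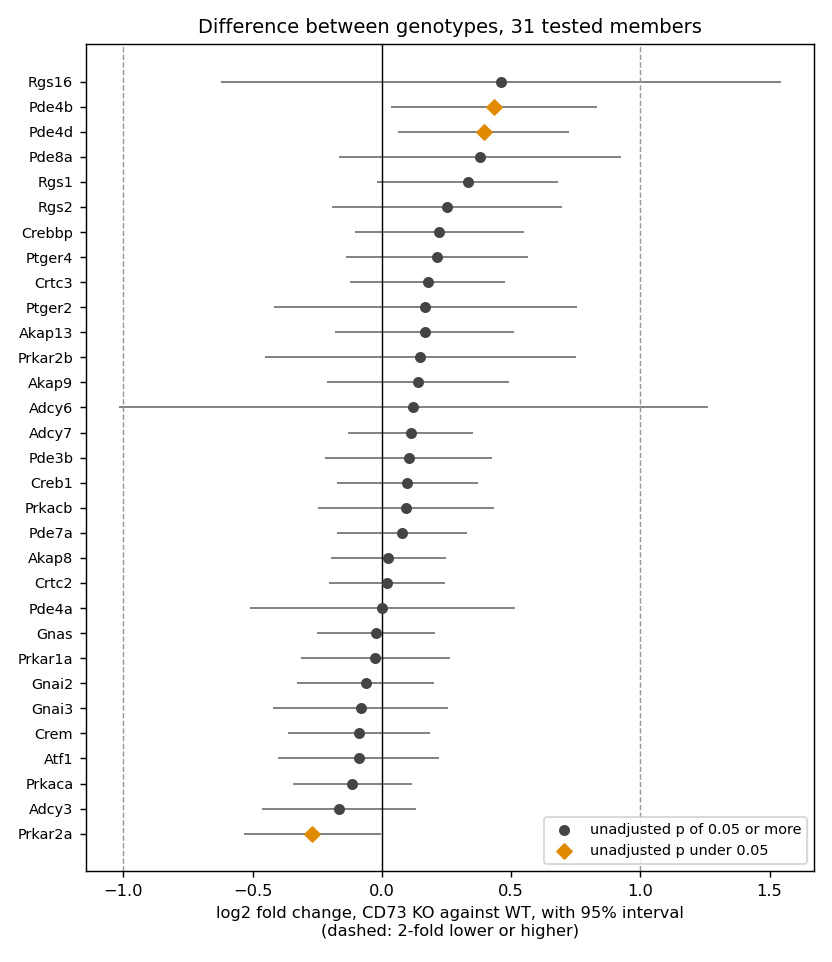
Fitted log2 fold change of CD73 KO against WT with its 95% interval for the 31 tested genes, sorted by size (diamonds mark an unadjusted p under 0.05, dashed lines a 2-fold difference). The values run from -0.27 for Prkar2a to 0.46 for Rgs16, and 29 of 31 intervals end inside the dashed lines.

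At the start of the route are the receptors for prostaglandin E2, EP2 and EP4, both coupled to Gs. Ptger4, which encodes EP4 (chromosome 15, 5206661 to 5244187), stood at 53.7, 34.7 and 41.4 CPM in CD73 KO and 36.1, 37.4 and 38.7 CPM in WT. CD73 KO replicates 1 and 3 were above all WT libraries and replicate 2 was below them. Its log2 fold change was 0.21 ± 0.16 (adjusted p = 0.684), and 0.018 without CD73 KO replicate 1. Ptger2, which encodes EP2 (chromosome 14, 44988195 to 45003820), was lower, at 5.05, 7.53 and 4.72 CPM against 4.90, 4.26 and 6.41 CPM. Its log2 fold change of 0.17 ± 0.27 (adjusted p = 0.862) turned to -0.072 without CD73 KO replicate 2. Per kb of exon, Ptger4 averaged 6.07 CPM and Ptger2 1.05 CPM. An antisense gene, Gm17173, overlaps Ptger2 and had 15 to 76 counts where Ptger2 had 40 to 114. The strand setting is not given, so reads of the overlap cannot be assigned.

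The 3 G protein subunits were among the most abundant genes of the route, and all 3 had log2 fold changes just below 0. Gnas, the stimulatory alpha subunit (chromosome 2, 174284320 to 174346744), stood at 1059, 989 and 1212 CPM in CD73 KO and 1124, 1077 and 1109 CPM in WT. All 3 WT values lay inside the CD73 KO range. CD73 KO differed from WT by -0.02 ± 0.10 on the log2 scale (adjusted p = 0.962), with a 95% interval from -0.25 to 0.21. Counts at Gnas pool all transcripts of a complex locus, and its antisense gene Nespas had 6 to 26 counts. Gnai2, the main inhibitory alpha subunit of lymphocytes (chromosome 9, 107614125 to 107635367), had 745, 631 and 678 CPM against 769.5, 768 and 606 CPM (log2 fold change -0.06 ± 0.12, adjusted p = 0.889). Gnai3, a second inhibitory subunit, had -0.08 ± 0.15. Gnai2 was the highest of the 34 per kb, at 185 CPM, beside 97.9 CPM for Gnas and 74.3 CPM for Gnai3. The order of Gnai2 and Gnas rests on the exon length, 3779 bases for Gnai2 and 11186 for Gnas. In CPM, not divided by length, Gnas was above Gnai2 in every library. These levels do not give the ratio of the proteins.

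RGS proteins speed up the hydrolysis of GTP on G alpha subunits and so shorten their signal. Rgs1 (chromosome 1, 144242296 to 144249242), a brake on chemokine receptors in lymphocytes, was at 57.5, 61.5 and 58.7 CPM in CD73 KO. In WT it was at 37.5, 44.8 and 59.7 CPM, so that replicates 1 and 2 lay below every CD73 KO library and replicate 3 among them. This gave a log2 fold change of 0.33 ± 0.16 (adjusted p = 0.533), which ran from 0.18 without WT replicate 1 (adjusted p = 0.878) to 0.53 without WT replicate 3 (adjusted p = 0.219). Rgs16 (chromosome 1, 153740349 to 153745468), which T cells induce on activation, spread widely within both genotypes: 32.6, 80.8 and 86.8 CPM in CD73 KO and 40.7, 34.6 and 70.5 CPM in WT. CD73 KO replicate 1 was the lowest of all 6 and WT replicate 3 lay near the other CD73 KO libraries. Its log2 fold change of 0.46 ± 0.44 (adjusted p = 0.770) had a 95% interval from -0.62 to 1.55. Single libraries moved it both ways. Leaving out CD73 KO replicate 1 gave 0.79 and leaving out WT replicate 3 gave 0.82, whereas it was 0.29 without CD73 KO replicate 2, 0.23 without CD73 KO replicate 3 and 0.26 without the library labelled WT replicate 2. Rgs2, a regulator that acts mainly on Gq, had 22.8 to 39.4 CPM over the 6 libraries and a log2 fold change of 0.25 ± 0.20. Rgs16 varied more within its groups than 98.0% of all tested genes, with a pooled SD of 0.67 on the log2 scale.

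The cyclases make cAMP from ATP. Adcy7, the dominant form here (chromosome 8, 88272403 to 88329962), was at 315, 369 and 368 CPM in CD73 KO and 314, 306 and 354 CPM in WT. CD73 KO replicate 1 lay among the WT values and the other two exceeded them. The genotypes differed by 0.11 ± 0.11 on the log2 scale (adjusted p = 0.763; 95% interval -0.13 to 0.35). Adcy3 had -0.16 ± 0.13, with 35.5 to 48.9 CPM in all. Part of its exons overlaps Cenpo on the other strand, which had 203 to 465 counts. Adcy6 had 2.34 CPM in WT replicate 2 and 10.5 CPM in WT replicate 3, a range of 4.50-fold that also contained all CD73 KO values, and its log2 fold change was 0.12 ± 0.50. Summed over the 4 cyclases, CD73 KO had 396 ± 27.0 CPM against 375 ± 28.2 CPM for WT (SD, n = 3), with overlapping ranges.

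The phosphodiesterases hold 2 of the 3 members with an unadjusted p under 0.05. All 6 tested members had log2 fold changes above 0, from 0.0024 to 0.44, with a median of 0.24. Of the tested genes with a Pde symbol outside the members, Pde1a (-0.49 ± 0.29) and Pde11a (-0.03 ± 0.38) were below 0. Pde1b (0.44 ± 0.24), Pde5a (0.42 ± 0.33), Pde4c (0.15 ± 0.33) and Pde6d (0.07 ± 0.18) were above 0. The symbol does not show that each of these genes acts on cAMP. The shares above and the sum below leave them out. Pde4b (chromosome 4, 102087543 to 102607259), the PDE4 form linked to T cell receptor signalling, was at 48.4, 56.85 and 40.2 CPM in CD73 KO and 30.7, 31.85 and 45.8 CPM in WT. WT replicate 3 lay between CD73 KO replicates 3 and 1, and the other WT libraries were below all of CD73 KO. The difference was 0.44 ± 0.18 on the log2 scale (adjusted p = 0.502), with a 95% interval from 0.04 to 0.83. Pde4d (chromosome 13, 108449948 to 109953461), a second PDE4 gene, was at 57.9, 69.7 and 73.55 CPM in CD73 KO and 51.7, 41.75 and 59.8 CPM in WT. Again a single library, WT replicate 3, stood above the lowest CD73 KO value. On the log2 scale Pde4d differed by 0.39 ± 0.15 (adjusted p = 0.464), with a 95% interval from 0.06 to 0.72. Without WT replicate 3 the values were 0.63 for Pde4b (adjusted p = 0.222) and 0.52 for Pde4d (adjusted p = 0.292). Without the library labelled WT replicate 2 they were 0.35 and 0.26, with an adjusted p of 0.999 for both. Over 16 alternative fits the adjusted p ran from 0.130 to 0.999 for Pde4b and from 0.155 to 0.999 for Pde4d.

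**Figure D4:**
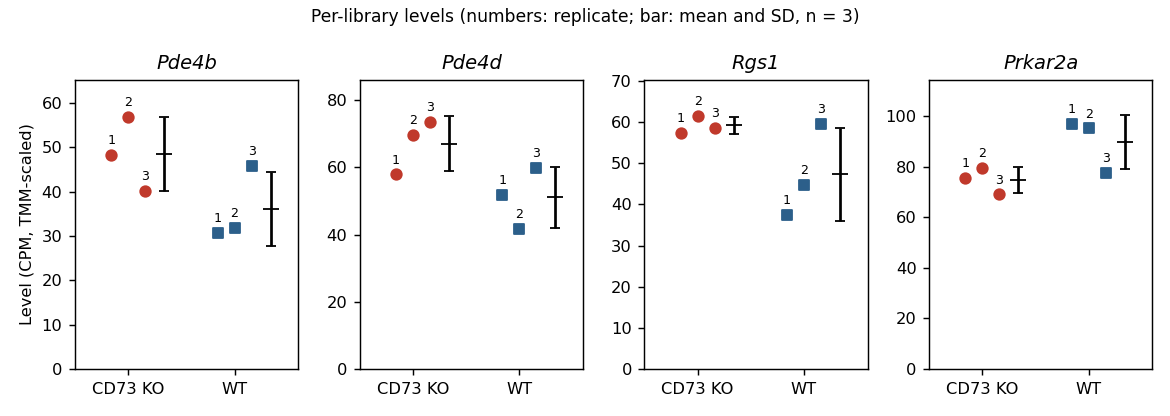
Level in CPM of Pde4b, Pde4d, Rgs1 and Prkar2a in each library (points, numbered by replicate) with the mean and SD of each group (bars, n = 3). WT replicate 3 lies inside the CD73 KO range in all 4 panels, while WT replicates 1 and 2 lie below it for Pde4b, Pde4d and Rgs1 and above it for Prkar2a.

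The other phosphodiesterases differed less. Pde3b (chromosome 7, 114415281 to 114539251) was at 213, 190.1 and 166 CPM in CD73 KO and 182, 205 and 142 CPM in WT, groups that interleaved (log2 fold change 0.10 ± 0.15, adjusted p = 0.846). Pde7a (chromosome 3, 19223108 to 19311322) was at 88.2, 105 and 84.5 CPM against 88.0, 89.6 and 85.0 CPM. Its log2 fold change of 0.08 ± 0.11 (adjusted p = 0.847) rested on CD73 KO replicate 2 and was -0.020 without it. Pde8a, a form with high affinity for cAMP, had 4.98 to 8.67 CPM and 0.38 ± 0.25. Pde4a had 9.31 to 15.9 CPM, with a log2 fold change of 0.0024 ± 0.23. The 7 phosphodiesterases together summed to 425, 442 and 385 CPM in CD73 KO and to 374, 385 and 348 CPM in WT. The lowest CD73 KO library, at 385.5 CPM, exceeded the highest WT library, at 384.8 CPM, by less than 1 CPM.

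Holoenzymes of PKA pair catalytic with regulatory subunits, and type I (Prkar1a, Prkar1b) and type II (Prkar2a, Prkar2b) regulatory subunits place the kinase differently in the cell. In T cells it is type I that is known to restrain receptor signalling. Prkar1a (chromosome 11, 109649405 to 109669656), the only one of the 27 genes with the full response element, was at 840.4, 703 and 627 CPM in CD73 KO and 799, 768 and 641 CPM in WT. Both groups spanned nearly the same range, and the log2 fold change was -0.02 ± 0.13 (adjusted p = 0.966; 95% interval -0.31 to 0.26). Prkaca (chromosome 8, 83972993 to 83996443) was at 90.8, 97.2 and 99.8 CPM against 109.9, 105 and 96.4 CPM. Its groups overlapped through WT replicate 3 (log2 fold change -0.11 ± 0.10, adjusted p = 0.743). Prkacb (chromosome 3, 146729574 to 146812990) was at 182, 177 and 119.8 CPM against 162, 148 and 139 CPM. CD73 KO replicate 3 held the lowest value and the other 2 CD73 KO libraries the highest (0.09 ± 0.15, adjusted p = 0.870).

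Prkar2a (chromosome 9, 108689314 to 108750436) was the 1 member at the lower end with an unadjusted p under 0.05. It was at 75.65, 79.6 and 69.1 CPM in CD73 KO and 97.05, 95.2 and 77.7 CPM in WT. WT replicate 3 lay below CD73 KO replicate 2, so the groups overlapped by that pair of libraries. Prkar2a had a difference of -0.27 ± 0.12 on the log2 scale (adjusted p = 0.517; 95% interval -0.53 to -0.0025), and it ran from -0.36 to -0.21 over the 16 alternative fits, with an adjusted p from 0.322 to 0.999. Prkar2a lies 20.3 Mb from Nt5e on the same chromosome, as does Gnai2 at 19.2 Mb and Pde4a at 67.1 Mb. Whether the DNA around Nt5e differs in origin between the genotypes was not tested. Prkar2b, the other type II subunit, had 3.47 to 5.96 CPM and a log2 fold change of 0.15 ± 0.27.

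Ratios inside a library do not depend on the scaling of libraries, and 2 of them were tested. Type II subunits made up 6.49%, 7.87% and 7.51% of the regulatory subunit counts per kb in CD73 KO and 8.13%, 8.25% and 8.43% in WT. Every CD73 KO library was below every WT library, a difference of -0.98 percentage points between means of 7.29% ± 0.719 and 8.27% ± 0.151 (SD, n = 3; exact permutation p = 0.10, two-sided). That is the smallest p that 3 against 3 libraries allow, and adjusted over the 2 ratios it was 0.20. Prkacb made up 36.2%, 34.03% and 25.4% of the catalytic subunit counts per kb in CD73 KO and 29.5%, 28.6% and 29.0% in WT. Here the CD73 KO libraries lay on both sides of a narrow WT range (exact permutation p = 0.40, two-sided, n = 3; 0.40 adjusted over the 2 ratios).

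Anchoring proteins (AKAPs) hold PKA at chosen places. Akap13, a large scaffold that also activates RhoA (chromosome 7, 75455534 to 75754609), was at 432, 385 and 321 CPM in CD73 KO and 414, 319 and 281 CPM in WT. The 2 ranges overlapped over most of their span (log2 fold change 0.17 ± 0.16, adjusted p = 0.754). Akap8, a nuclear anchor, was one of the steadiest members, with 177 to 204 CPM over all libraries and a log2 fold change of 0.03 ± 0.10. Akap9, found at the centrosome and Golgi, had 49.7 to 77.8 CPM and 0.14 ± 0.16. A 166-base part of its exons overlaps Cyp51 on the other strand, which had 2194 to 4912 counts.

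None of the 3 transcription factors had an unadjusted p under 0.05. Creb1, the factor that PKA phosphorylates (chromosome 1, 64532645 to 64604548), was at 100.4, 127 and 106 CPM in CD73 KO and 97.8, 98.95 and 115 CPM in WT (log2 fold change 0.10 ± 0.12, adjusted p = 0.822). WT replicate 3 stood above 2 of the 3 CD73 KO libraries. Crem (chromosome 18, 3266048 to 3337748) encodes activators and, from an internal promoter, the cAMP-induced repressor ICER. It was at 31.8, 38.5 and 36.0 CPM against 39.2, 37.2 and 36.6 CPM, and its log2 fold change of -0.09 ± 0.12 (adjusted p = 0.844) had a 95% interval from -0.36 to 0.19. Counts per gene do not separate ICER from the other products. Atf1, the third factor of the family, had 90.5 to 120 CPM and -0.09 ± 0.14. A retrocopy, Atf1-ps, matched it at 98.4% identity but took only 1 to 5 counts.

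The coactivators of CREB are the CRTC proteins, which PKA lets into the nucleus by acting on the SIK kinases, and the acetyltransferase CBP. Crtc2 (chromosome 3, 90254163 to 90264125) was the steadiest of all members, at 91.4, 82.9 and 84.6 CPM in CD73 KO and 87.2, 82.0 and 86.1 CPM in WT. Its log2 fold change was 0.02 ± 0.10 (adjusted p = 0.964; 95% interval -0.20 to 0.25), and 2.95% of all tested genes varied less within groups. Crtc3 had 30.04 to 42.03 CPM and 0.18 ± 0.14, and Crebbp, which encodes CBP, 57.7 to 90.5 CPM and 0.22 ± 0.15. For the 3 factors and the 3 coactivators, all 6 intervals lay within 1.5-fold in either direction.

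Other genes of the pathway were read from a list of 78: further Gs- and Gi-coupled receptors, G protein partners, cyclases, phosphodiesterases, PKA inhibitors, anchors, the cAMP-responsive exchange factors and SIK kinases. Nt5e itself is in this list and in its counts. Sik1 is both in this list and in the list of CREB targets below. Of the 78, 54 passed the filter, and the 24 that did not had at most 17 counts in a library. By edgeR and by limma-voom 0 of 54 passed the adjusted threshold, and by DESeq2 1 did. At an unadjusted p under 0.05 there were 4, all higher in CD73 KO (7.41% against 9.64% of all tested genes). The log2 fold change was above 0 for 33 of 54 (61.1% against 52.3%), with a median of 0.07. Groups did not overlap for 9 of 54 (16.7% against 15.2%). Adora2a, an adenosine receptor coupled to Gs (chromosome 10), was at 37.6, 44.6 and 50.4 CPM in CD73 KO and 38.2, 37.6 and 40.0 CPM in WT. CD73 KO replicates 2 and 3 exceeded WT and replicate 1 did not (0.19 ± 0.13, adjusted p = 0.665). Adora2b, the other adenosine receptor known to couple to Gs, had 1.52 to 3.03 CPM over the 6 libraries and a log2 fold change of 0.09 ± 0.34 (adjusted p = 0.955).

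The 4 genes are a receptor, an exchange factor, an RGS protein and a kinase. Gpr65, a proton-sensing receptor that can couple to Gs, was at 158, 104 and 104 CPM in CD73 KO and 70.1, 78.2 and 66.8 CPM in WT, without overlap. The log2 fold change of Gpr65 was 0.77 ± 0.17 and its adjusted p 0.252. DESeq2 called it (adjusted p = 0.00600), as did edgeR without a filter on low counts (adjusted p = 2.92e-06). In the other 14 alternatives it was not called, and the adjusted p reached 0.618 without the library labelled WT replicate 2. Rapgef4, which encodes the cAMP-activated exchange factor EPAC2, was low, at 6.86, 4.69 and 4.72 CPM against 2.57, 3.30 and 1.71 CPM (1.09 ± 0.30, adjusted p = 0.330). Rgs10 stood at 74.5, 76.4 and 80.3 CPM against 59.5, 35.3 and 58.2 CPM (0.59 ± 0.18, adjusted p = 0.361), and its value was 0.38 without the library labelled WT replicate 2. Sik2, a kinase that keeps CRTC proteins in the cytoplasm and is itself inhibited by PKA, was at 19.2, 17.4 and 15.7 CPM against 14.5, 13.6 and 12.0 CPM (0.38 ± 0.16, adjusted p = 0.503). Sik2 lies on the chromosome of Nt5e, 37.3 Mb away, and whether the DNA there differs in origin between the genotypes was not tested. Over the 16 alternative fits the adjusted p ran from 0.0325 to 0.780 for Rapgef4 and from 0.293 to 0.999 for Sik2. For these 4 genes every CD73 KO library was above every WT library. They were picked by their unadjusted p in the same libraries, a choice that favours such separation. Per kb of exon Gpr65, at 46.8 CPM, was well above Adora2a at 13.5 CPM and Ptger4 at 6.07 CPM.

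**Figure D5:**
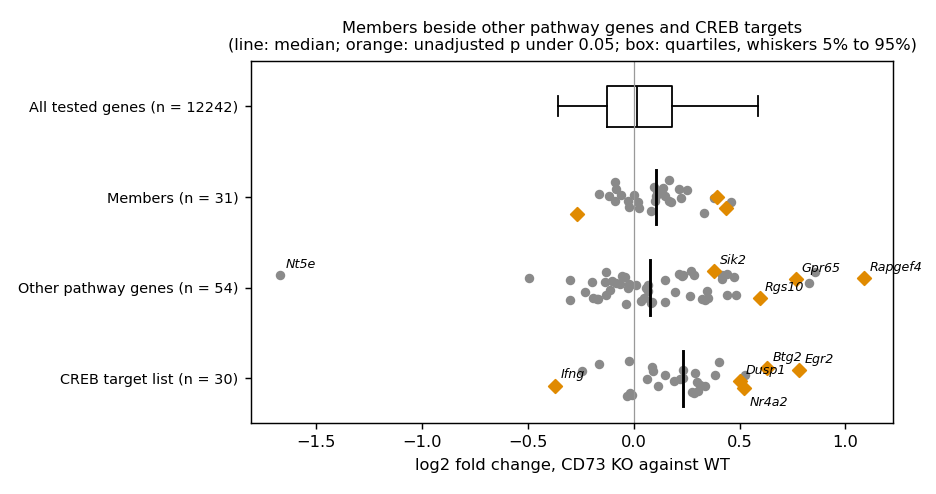
Fitted log2 fold changes of CD73 KO against WT for the members, the other pathway genes and the CREB targets (points, with the median as a line) beside all tested genes (box with quartiles, whiskers from 5% to 95%). Medians are 0.10, 0.07 and 0.23 against 0.01, and Nt5e at -1.67 is the lowest point.

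CREB target genes were read as the output of the route, from a list of 32 of which 30 were tested. Many of them also answer to the T cell receptor and to other signals. In edgeR, DESeq2 and limma-voom 0 of 30 passed the adjusted threshold. At an unadjusted p under 0.05 there were 5 (16.7% against 9.64% of all tested genes), 4 higher and 1 lower in CD73 KO. Of the 30, 23 had a log2 fold change above 0 (76.7% against 52.3%), with a median of 0.23, and groups did not overlap for 3 of 30 (10.0% against 15.2%). CD73 KO replicate 1 was above every WT library for Ier5, Dusp4, Fosl2 and Sgk1, at 86.0, 83.4, 50.5 and 32.5 CPM. For these genes CD73 KO replicates 2 and 3 were below the WT mean. For others, such as Nr4a3, Egr3 and Fos, replicate 1 was the lowest CD73 KO library. The median of the list without that library was not computed. Btg2, an antiproliferative gene with the response element shown above, was at 30.1, 30.8 and 34.9 CPM in CD73 KO and 21.0, 17.3 and 23.8 CPM in WT (0.63 ± 0.15, adjusted p = 0.287). Dusp1, a MAP kinase phosphatase with the same element, was at 30.1, 17.7 and 23.3 CPM against 16.2, 13.8 and 20.5 CPM, with overlap (0.50 ± 0.22, adjusted p = 0.507). The other 3 tested genes with the element had 0.29 ± 0.19 (Ppp1r15a), -0.13 ± 0.12 (Rap1b) and -0.02 ± 0.13 (Prkar1a), so genes with these letters lay on both sides of 0.

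Egr2, an early response factor, was at 13.7, 13.7 and 16.1 CPM in CD73 KO and 8.17, 7.03 and 10.3 CPM in WT, without overlap (0.78 ± 0.19, adjusted p = 0.287). Nr4a2, an orphan nuclear receptor, was at 58.4, 76.8 and 75.7 CPM against 39.8, 43.1 and 64.6 CPM, where WT replicate 3 again exceeded the lowest CD73 KO library (0.52 ± 0.19, adjusted p = 0.446). Ifng, the interferon gamma gene, was the one on the lower side, at 50.2, 51.0 and 47.7 CPM against 61.3, 75.3 and 56.0 CPM, without overlap (-0.37 ± 0.13, adjusted p = 0.415). Without the library labelled WT replicate 2, the adjusted p was 0.999 for each of Btg2, Dusp1, Egr2, Nr4a2 and Ifng. Their direction held with any single library left out. The log2 fold changes then ran from 0.51 to 0.73 for Btg2, 0.28 to 0.67 for Dusp1 and 0.66 to 0.92 for Egr2. For Nr4a2 they ran from 0.38 to 0.76 and for Ifng from -0.46 to -0.25.

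How many of the 31 members had an unadjusted p under 0.05 moved with single libraries. Without the library labelled WT replicate 2 there were 0 (4.48% of all tested genes), and the lowest adjusted p was 0.999. Without WT replicate 3 there were 5, namely Rgs1, Pde4b, Prkar2a, Pde4d and Adcy6, where 11.6% of all tested genes passed. Without CD73 KO replicate 2 there were 4, with Prkar2a the only one shared with the 3 found in all libraries. Which genes these were also changed with the method on all 6 libraries. Prkar2a was not among them with DESeq2 or with plain library size. With the replicate block Pde4b was not among them and Rgs1 was. The count of members past the adjusted threshold was 0 in each of these fits.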

How the data were processed

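The deposited table holds raw read counts for 49671 Ensembl genes in 6 columns, and the sample descriptions name the column of each library; none was left over. The submitters' processing notes name fastp, HISAT2, featureCounts and mm10. Tool versions, strand setting and annotation were not found in these sources. A symbol was found for 49326 identifiers. Loci and exon lengths (union of exons) are those of GENCODE M21 (GRCm38, which mm10 names), and promoter windows those of RefSeq (GRCm38.p6).

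The filter was edgeR's filterByExpr (at least 10 counts, total of at least 15), and 12242 genes passed it. The genotype test was the quasi-likelihood F-test of edgeR 4.0.16 under R 4.3.3, with TMM factors, robust dispersions and the legacy fit. Benjamini-Hochberg adjustment covered all tested genes, at a threshold of 0.05. A standard error is the size of the log2 fold change over the square root of F, and 95% intervals use the degrees of freedom of the test. Subunit shares were compared by exact permutation of libraries.

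The alternatives were RLE factors, plain library size, no filter, a minimum of 1 CPM in 3 libraries, the newer edgeR fit, non-robust dispersions, a replicate block, leaving out each library, DESeq2 1.42.0 and limma-voom (limma 3.58.1). Thinning to 6934150 counts, and the alternatives for single named genes outside the members, were added after seeing the data. Retrocopies were matched with blastn 2.17.0 (E-value at most 1e-20, coverage of 70% or more). Libraries of 1 genotype differed by more than sampling noise.

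The members and gene lists were chosen with earlier results of these data known. Members were given per library where groups did not overlap, where the unadjusted p was under 0.05, or where they were among 17 main genes set in the rule. From the other lists, genes with an unadjusted p under 0.05, Adora2a and Nt5e were named. Adora2b, Ppp1r15a and Rap1b were named after their values were seen, the last 2 from the promoter search. So were the genes with a Pde symbol outside the members and the CREB targets named for the place of CD73 KO replicate 1.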

Additional observations from a re-analysis of the deposited data

How the results depend on the processing

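No member passed the adjusted threshold under any of the 16 alternatives, DESeq2 and limma-voom included, and the members' median log2 fold change ran from 0.04 to 0.14. Among all tested genes, 7 were called. The count was 298 without a filter on low counts, 99 with DESeq2, and 4 to 8 with single libraries left out, the 4 being reached when CD73 KO replicate 2 or WT replicate 2 was left out. Among the other pathway genes, 0 became 3 without a filter (Gpr65, Rapgef4 and Rgs10) and 1 with DESeq2 (Gpr65). Among CREB targets, 0 became 3 without a filter (Nr4a2, Egr2 and Btg2). The cause was not tested. With single libraries left out, 8 of the 19 members given per library turned direction; the others were not followed one by one, but the number of members above 0 ran from 17 to 23 of 31. Their log2 fold changes then ran from -0.072 to 0.33 for Ptger2, -0.11 to 0.041 for Gnas, -0.029 to 0.22 for Pde3b, -0.020 to 0.14 for Pde7a, -0.019 to 0.26 for Prkacb, -0.15 to 0.066 for Prkar1a, -0.0098 to 0.18 for Creb1 and -0.030 to 0.049 for Crtc2. Thinned to the smallest total, Ptger2 was at -0.012. With the replicate block, 5 of all tested genes and 0 members were called. The titles number the libraries E1 to E3 in both genotypes, and what the numbers mark is not given. Deviations of same-numbered libraries correlated at 0.17, -0.18 and 0.034, and those of differently numbered libraries at -0.345 to 0.368. With 3 libraries per genotype these values cannot decide whether the numbers pair the samples. Depth and spread limit what could be detected: the 95% intervals of 9 members reached beyond 1.5-fold, those of Ptger2, Adcy6, Pde8a and Prkar2b at low levels and those of Rgs1, Rgs2, Rgs16, Pde4b and Pde4d at higher ones.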
